A study of Mus musculus with 18 samples.

Results

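Fatty acid desaturases and elongases set the length and the number of double bonds of the acyl chains that a cell makes or takes up. The group described here holds 10 genes: the stearoyl-CoA desaturases Scd1, Scd2 and Scd3, the elongases Elovl1, Elovl3, Elovl5 and Elovl6, and the front-end desaturases Fads1, Fads2 and Fads3. A gene was included by its name among the probes of the array, and 12 probes carry the 10 names. All 10 genes and all 12 probes passed the filter on dim probes, so the group makes up 10 of the 19211 genes tested. To pass, a probe had to be measured well above background by every array of some group. For 8 members that held in all 6 groups, for Elovl3 in 2, brown and inguinal adipocytes, and for Scd3 in 1, epididymal adipocytes.

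The samples are fat of young adult male C57BL/6 mice, a common laboratory strain, with no treatment or allele named in the labels. Interscapular brown, inguinal and epididymal fat were each digested with collagenase and separated by centrifugation into floating adipocytes and the stromal-vascular fraction (SVF), the pellet of progenitors, vessel cells and immune cells, from which erythrocytes were lysed. Each of the 6 groups of depot and fraction was run as biological triplicates on one-colour 60-base oligonucleotide arrays, 18 in all. The labels do not say whether a replicate was 1 mouse or a pool.

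Stearoyl-CoA desaturases place the first double bond, at the delta-9 position, into palmitate and stearate, which turns saturated into monounsaturated chains. Fads1 and Fads2 encode the delta-5 and delta-6 desaturases, which act on essential fatty acids on the way to arachidonic and docosahexaenoic acid. Elongases of the Elovl family carry out the first, condensing step of the cycle that adds a pair of carbons in the endoplasmic reticulum, with Elovl6 acting on the saturated and monounsaturated products of fatty acid synthase and Elovl5 on polyunsaturated chains. In fat, these enzymes shape the triglyceride of the lipid droplet and the membrane lipids, and Elovl3 is known as a gene of cold-exposed brown fat.

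Because the members are close relatives, the comparison of isoforms rests on what each probe binds. The first 30 bases of the 60-base probes of the genes with a called difference between fractions follow, as the array files give them, in lower case with no part marked:
Scd1: actcctgggctaagtatctgacagtctcac
Scd2: acatttggggatcctctgcagaggagtatt
Scd3: ttcagggtaggtgtctcaagccaaatccaa
Elovl6: cctaggccctaaacccatattcagagggaa
Fads3: taaaatgacacggtgagcatagcatgtttt
The longest run of bases that any pair of the full Scd1, Scd2 and Scd3 probes shares is 6. Scd1 and a probe of Scd4 share 10. In the RefSeq annotation of GRCm38.p6, the Scd genes are neighbours on chromosome 19, with Scd3 at chr19:44203288-44244016, Scd2 at chr19:44293676-44306864 and Scd1 at chr19:44394450-44407709. The Fads genes form a second cluster on that chromosome, with Fads3 at chr19:10040855-10060113, Fads2 at chr19:10062765-10101503 and Fads1 at chr19:10182877-10196874. Elovl3 lies at chr19:46131897-46135694, while Elovl6 is on chromosome 3, Elovl1 on chromosome 4 and Elovl5 on chromosome 9. Where in its transcript each probe lies was not determined.

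A level is the log2 of a probe's processed signal after division by the 75th percentile signal of its array, so 0 is the brightness at that percentile. A level belongs to its probe, and levels of different genes are not set against each other. The 75th percentile signal ran from 338 to 1257 over the arrays, and 49.6 to 72.3 percent of probes were well above background, except 87.9 percent on epididymal adipocyte replicate 1. A group that no array measured well above background gives at most a bound. The number of arrays, 3 per group, limits the precision. Every inguinal and epididymal adipocyte array was scanned earlier, and extracted with an earlier software version, than every brown and every SVF array. In the inguinal and epididymal fraction comparisons, in those of brown with the other adipocytes, and in the interactions of brown with a white depot, array batch and group therefore cannot be told apart. Inguinal and epididymal adipocyte arrays share the earlier software version but no slide and no scan day. In their comparison, and in the interaction of these depots, slide or scan day and depot cannot be told apart either. Brown adipocytes and brown SVF share slides, as do the SVFs, and values within a slide or scan day are given for them. No call of a member was lost in any comparison when a random block for slide, or one for scan day, was added. Where the groups compared share no slide or scan day, such a block cannot remove a batch difference, so the kept calls decide nothing there. With slide as a fixed block, the brown call of Scd2 was lost (limma, adjusted p = 0.0550).

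Mature adipocyte markers followed the labelled fractions within each depot, while markers of several other cell types did not in every depot. Adipoq, the adipokine of mature adipocytes, lay between 7.41 and 8.79 on the 9 adipocyte arrays and between 0.66 and 7.16 on the 9 SVF arrays, where the highest was brown SVF replicate 2. For the list of 10 mature adipocyte markers, all of them tested, the log2 of the summed level was 10.3 to 11.6 on adipocyte arrays, 5.08 to 8.07 on inguinal and epididymal SVF arrays, and 7.37 to 10.1 on brown SVF arrays. The progenitor marker Pdgfra was between -2.31 and 1.57 on adipocyte arrays and between 1.33 and 3.60 on SVF arrays. Several arrays stood apart from their groups. Inguinal SVF replicate 1 had a summed mesothelial level of 7.41, against 0.72 and 1.57 on the other inguinal SVF arrays. Epididymal adipocyte replicate 3 had a summed brown adipocyte level of 7.29 against 3.91 and 3.49, with Ucp1, the uncoupling protein of brown fat, at 4.50 against -3.35 and -1.05. All called member differences kept their call when those 2 arrays were left out together. Lymphocyte markers, all 10 tested, summed to 7.67 on inguinal SVF replicate 3 against 2.31 and 4.95, and to 1.07 on inguinal adipocyte replicate 3 against 5.66 and 5.43. On brown SVF replicate 2 the mature adipocyte level was 10.1 against 7.37 and 7.56, and on inguinal SVF replicate 2 that of skeletal muscle was 5.92 against 1.51 and 1.96. Without inguinal adipocyte replicate 3, 2 calls of members were lost, as given with the genes, and none was lost without inguinal SVF replicate 3, brown SVF replicate 2 or inguinal SVF replicate 2. In bulk RNA such as this, fewer cells of a type and less RNA per cell cannot be told apart.

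**Figure D1:**
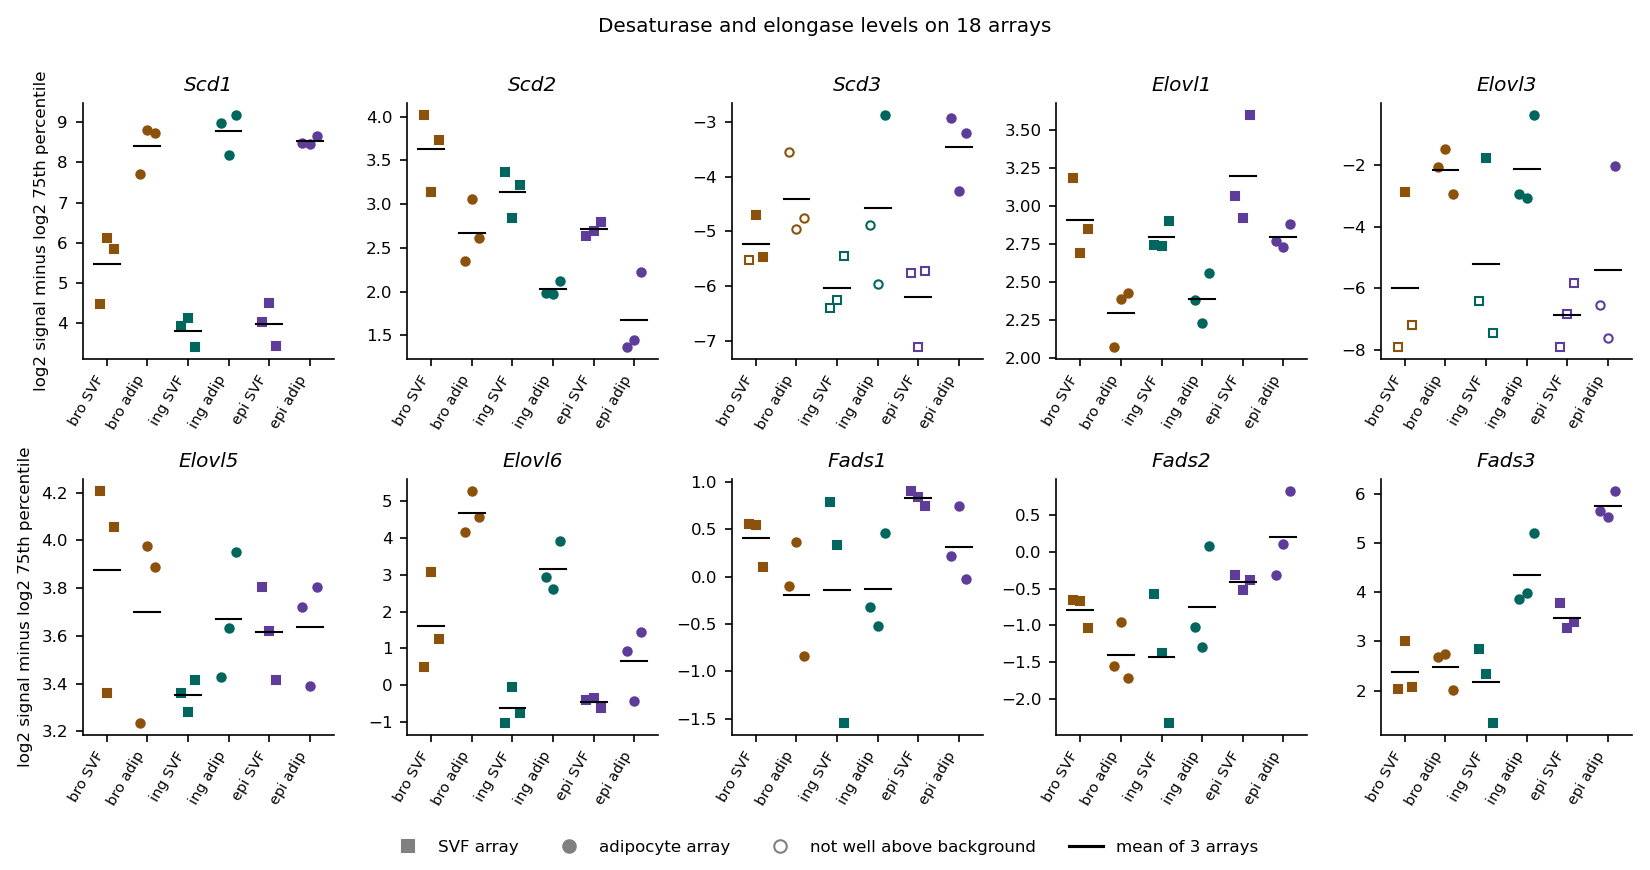
Level of each of the 10 genes (vertical axis, log2 of signal over the 75th percentile signal) in the 6 groups of depot (brown, inguinal, epididymal) and fraction (SVF, adipocyte, shortened to adip); points are arrays, open points are not well above background, and lines are means of 3 arrays. Scd1 is higher and Scd2 lower on all adipocyte arrays than on the SVF arrays of the same depot, and Fads3 is highest in epididymal adipocytes.

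Scd1, the main delta-9 desaturase of adipose tissue and liver, had a high level on all adipocyte arrays and differed from SVF in every depot. On the brown arrays it was 4.49, 6.12 and 5.86 in SVF and 7.71, 8.80 and 8.72 in adipocytes. The inguinal values were 3.93, 4.13 and 3.42 in SVF and 8.98, 8.20 and 9.18 in adipocytes. In epididymal fat they were 4.03, 4.51 and 3.43 in SVF and 8.48, 8.46 and 8.66 in adipocytes. Fractions overlapped in no depot. The adipocyte values of the 3 depots overlapped, whereas brown SVF was the highest and the most spread SVF group (5.49 ± 0.878, SD, n = 3). Adipocytes exceeded SVF by 2.92 ± 0.44 (SE) on the log2 scale in brown fat, a 7.57-fold difference (limma, Benjamini-Hochberg adjusted p = 0.000411). Inguinal adipocytes exceeded their SVF by 4.96 ± 0.44, or 31.1-fold (limma, adjusted p = 8.6e-05), and epididymal adipocytes by 4.55 ± 0.44, or 23.4-fold (limma, adjusted p = 4.24e-05). Within the brown slides the difference was 2.86 on the slide with 1 array per fraction and 2.95 on the slide with 2.

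The smaller brown difference in Scd1 did not pass the test of the difference itself. The fraction difference was 2.04 ± 0.62 smaller on the log2 scale in brown than in inguinal fat (95% interval of brown minus inguinal -3.35 to -0.73, limma adjusted p = 0.149). Against epididymal fat it was 1.63 ± 0.62 smaller (interval -2.94 to -0.31, limma adjusted p = 0.156). Brown SVF replicate 2 had the highest Scd1 of any SVF array and the highest mature adipocyte marker level. On brown SVF replicates 1, 2 and 3 that marker level was 7.37, 10.1 and 7.56. Adipoq was 3.15, 7.16 and 4.43 in the same order, and Scd1 4.49, 6.12 and 5.86. The part of adipocyte RNA in those Scd1 values was not tested.

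Scd2, the isoform known for its wide expression in brain and other tissues, went the other way. Its level fell from 4.02, 3.14 and 3.74 in brown SVF to 2.35, 3.06 and 2.61 in brown adipocytes. The inguinal arrays were at 3.36, 2.84 and 3.22 in SVF and 1.98, 1.98 and 2.12 in adipocytes, and the epididymal arrays at 2.64, 2.70 and 2.79 in SVF and 1.37, 1.44 and 2.23 in adipocytes. Again the fractions did not overlap in any depot. In brown fat adipocytes were lower by 1.94-fold (log2 difference -0.96 ± 0.29, limma adjusted p = 0.027). The inguinal adipocytes were lower by 2.16-fold (-1.11 ± 0.29, limma adjusted p = 0.0198) and the epididymal ones by 2.04-fold (-1.03 ± 0.29, limma adjusted p = 0.0175). Each of these calls lies near the threshold. The brown call was lost without brown SVF replicate 1 (adjusted p = 0.130) or 3 (0.0925), without brown adipocyte replicate 1 (0.120) or 3 (0.0855), with slide as a fixed block (0.0550), with median scaling (0.0722) and with only the groups compared in the fit (0.0582). Its value was -1.12 and -0.87 within the 2 slides. The inguinal call was lost without inguinal SVF replicate 1 (adjusted p = 0.0607) or inguinal adipocyte replicate 3 (0.0556), with normexp background correction (0.129) and with only the groups compared (0.149). The epididymal call was lost without epididymal SVF replicate 2 (0.0548) or 3 (0.0547) or epididymal adipocyte replicate 1 (0.0878) or 2 (0.0552), and with normexp (0.0556).

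Scd3, a further delta-9 desaturase known from sebaceous glands of the skin, was close to background. Its probe was well above background on 6 of the 18 arrays: all 3 epididymal adipocyte arrays (-2.92, -4.26 and -3.21), inguinal adipocyte replicate 3 (-2.87), and brown SVF replicates 2 (-4.70) and 3 (-5.47). No inguinal or epididymal SVF array and no brown adipocyte array measured it well above background. Epididymal adipocytes exceeded epididymal SVF at least 4.43-fold, from their mean of -3.46 against the lowest measurable level of the SVF arrays, -5.61 on average (limma, adjusted p = 0.00895, fitted log2 difference 2.73 ± 0.66). Since the probe passed the filter only through epididymal adipocytes, the group in which it is high, this bound and this call were favoured by the selection. The call was lost without epididymal SVF replicate 2 (adjusted p = 0.05001), with normexp background correction (1.18, adjusted p = 0.206) and in the deposited matrix (0.51, adjusted p = 0.166). In inguinal fat only 1 adipocyte array measured the probe, so no bound can be given, and the difference did not pass (limma, adjusted p = 0.154). Without inguinal adipocyte replicate 2 the test passed (adjusted p = 0.0407), though still only 1 adipocyte array measured the probe. The keratinocyte and sebaceous list, with 8 genes tested, had a summed level of 1.19 to 1.97 on epididymal adipocyte arrays and 0.47 to 1.87 on epididymal SVF arrays, and its part in the Scd3 values was not tested.

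Elovl6, which extends palmitate to stearate, separated the fractions in brown and inguinal fat. Its level was 0.49, 3.09 and 1.26 in brown SVF and 4.18, 5.28 and 4.58 in brown adipocytes. In inguinal fat it was -1.03, -0.06 and -0.77 in SVF and 2.93, 2.63 and 3.92 in adipocytes. The epididymal values were -0.39, -0.34 and -0.62 in SVF and 0.93, -0.42 and 1.45 in adipocytes, where the fractions overlapped through replicate 2. Brown adipocytes exceeded SVF 8.37-fold (log2 difference 3.07 ± 0.60, limma adjusted p = 0.00232), with 3.32 and 2.94 within the 2 slides. Inguinal adipocytes exceeded SVF 13.7-fold (3.78 ± 0.60, limma adjusted p = 0.00147). The epididymal difference of 1.1 ± 0.60 did not pass (95% interval -0.17 to 2.38, limma adjusted p = 0.193). The interaction tests found no called difference between depots. The inguinal minus epididymal interaction was 2.67 ± 0.85 (interval 0.87 to 4.48, limma adjusted p = 0.267) and the brown minus epididymal one 1.96 ± 0.85 (0.15 to 3.77, limma adjusted p = 0.209).

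Among the other elongases, Elovl1, which makes very long saturated and monounsaturated chains, was slightly lower on adipocyte arrays. Its SVF values ran from 2.69 to 3.60 over the depots and its adipocyte values from 2.07 to 2.88, and within no depot did the fractions overlap. None of the 3 differences passed. In brown fat it was -0.62 ± 0.22 (limma, adjusted p = 0.0614), in inguinal fat -0.41 ± 0.22 (0.234) and in epididymal fat -0.40 ± 0.22 (0.197). The brown difference passed with quantile normalization (-0.91, adjusted p = 0.00393), in the deposited matrix (-0.88, 0.00246) and with array weights (-0.75, 0.000615). It also passed with probes above background on all arrays (0.0424), with replicate number as a block (0.0453) and with a random block for slide (0.0347) or scan day (0.0364). Without epididymal SVF replicate 3 it passed as well (0.0446). The epididymal one passed with median scaling (-0.92, 0.0242). On the brown slides it was -0.42 and -0.71.

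Elovl5 varied least in the group. Over all 18 arrays its level stayed between 3.24 and 4.21, and the fraction differences were -0.17 in brown fat, 0.32 in inguinal and 0.02 in epididymal fat, each with an SE of 0.27 (limma, adjusted p of 0.702, 0.451 and 0.960). The 95% intervals reach from -0.75 to 0.89, which leaves room for differences below 2-fold. With array weights the brown difference was -0.59 and passed (limma, adjusted p = 0.0221). A second Elovl5 probe gave -0.29, -0.04 and -0.40 (SE 0.29) in the same order, none of them called.

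Elovl3, which elongates saturated and monounsaturated chains into the very long range, was well above background on 9 arrays. Those were the 3 brown adipocyte arrays (-2.07, -1.49 and -2.95), the 3 inguinal adipocyte arrays (-2.95, -3.06 and -0.38), epididymal adipocyte replicate 3 (-2.02), brown SVF replicate 2 (-2.86) and inguinal SVF replicate 2 (-1.77). No epididymal SVF array measured it. The differences between fractions were 3.82 ± 1.62 in brown fat and 3.08 ± 1.62 in inguinal fat, each against an SVF with 1 measured array. In epididymal fat only 1 adipocyte array measured the probe, so no bound can be given. The fraction comparisons did not pass in brown, inguinal or epididymal fat (limma, adjusted p of 0.115, 0.219 and 0.545). Without brown SVF replicate 2, no brown SVF array measured Elovl3, which left a bound of at least 12.2-fold for brown adipocytes (limma, adjusted p = 0.0321). Without inguinal SVF replicate 2, the bound for inguinal adipocytes was at least 6.05-fold and the test did not pass (limma, adjusted p = 0.0636). The probe passed the filter only through brown and inguinal adipocytes, and the array left out was the only one of its SVF that measured Elovl3. These bounds and the call were therefore favoured by both selections. The 4 arrays on which Elovl3 stood out within a group also had the highest Ucp1 of that group. Epididymal adipocyte replicate 3 had Ucp1 at 4.50, brown SVF replicate 2 also at 4.50, and inguinal adipocyte replicate 3, with the highest Elovl3 of all arrays, had Ucp1 at 4.34 against 1.99 and 2.18 in its group. Inguinal SVF replicate 2 was the only inguinal SVF array with Ucp1 well above background, at -4.07, and it was the array with the high skeletal muscle level. Among the brown adipocyte arrays, replicate 2 had the highest Elovl3 and the lowest Ucp1, 7.24. The part of brown adipocyte RNA in the Elovl3 values was not tested.

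Fads3, a member of the Fads cluster whose product acts on sphingoid bases and vaccenic acid, separated the fractions in both white depots. Brown fat had 2.02, 3.01 and 2.07 in SVF and 2.69, 2.75 and 2.00 in adipocytes, which overlapped. Inguinal arrays were at 2.84, 2.34 and 1.34 in SVF and 3.87, 3.98 and 5.20 in adipocytes. Epididymal arrays were at 3.79, 3.26 and 3.39 in SVF and 5.65, 5.54 and 6.06 in adipocytes. The white depots had no overlap between fractions. Inguinal adipocytes exceeded SVF 4.52-fold (log2 difference 2.18 ± 0.43, limma adjusted p = 0.0048) and epididymal adipocytes exceeded SVF 4.81-fold (2.27 ± 0.43, limma adjusted p = 0.00272), against a difference of 0.11 ± 0.43 in brown fat (95% interval -0.80 to 1.02, limma adjusted p = 0.888). A second Fads3 probe gave 2.21, 2.16 and -0.25 in the same order, with the same calls. The inguinal call was lost when only the inguinal arrays were fitted (adjusted p = 0.114). Without inguinal SVF replicate 3, the array with the high lymphocyte level and the lowest Fads3, the inguinal difference was 1.76 (adjusted p = 0.0131).

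The difference between brown and white fat in Fads3 came near the threshold without passing it. The brown minus epididymal interaction was -2.16 ± 0.60 (95% interval -3.44 to -0.87, limma adjusted p = 0.0781), and it passed without inguinal SVF replicate 3 (adjusted p = 0.0403) or inguinal adipocyte replicate 3 (0.0426), arrays that enter only through the shared spread. It also passed with quantile normalization (0.0402), in the deposited matrix (0.0424) and with only the groups compared (0.0214). The brown minus inguinal interaction was -2.07 ± 0.60 (-3.35 to -0.78, adjusted p = 0.138). In both, the white adipocyte arrays alone are of the earlier batch, so batch and depot cannot be told apart. Of the 10 members, 0 were called in any of the 3 interactions by limma. At an unadjusted p under 0.05 there were 2 for brown against inguinal fat, 3 for brown against epididymal and 1 for inguinal against epididymal, where 13.6, 20.8 and 11.5 percent of all genes had such a p. After adjustment the interactions called 0.864, 2.02 and 0.0781 percent of all genes in that order.

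Fads1 and Fads2 did not pass in any fraction comparison. Fads1 was 0.56, 0.55 and 0.11 in brown SVF against -0.09, 0.36 and -0.84 in adipocytes, and 0.91, 0.84 and 0.75 in epididymal SVF against 0.22, 0.75 and -0.02. In inguinal fat its SVF values spread from -1.55 to 0.79. The lowest, and the lowest inguinal SVF value of Fads2 (-2.32), came from replicate 3, the array with the high lymphocyte level, and the part of lymphocyte RNA in these values was not tested. Without that array the inguinal difference of Fads1 was -0.69 (limma, adjusted p = 0.222) and that of Fads2 was 0.23 (0.7504). Fads2 was -0.32, -0.53 and -0.39 in epididymal SVF and -0.32, 0.10 and 0.82 in epididymal adipocytes, a difference of 0.61 ± 0.44 (limma, adjusted p = 0.324). In brown fat the difference of Fads2 had the opposite sign, -0.62 ± 0.44 (adjusted p = 0.362), and in inguinal fat it was 0.68 ± 0.44 (adjusted p = 0.312).

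In all, 3 of the 10 genes differed between the brown fractions, 2 higher in adipocytes and 1 lower, where 21.1 percent of all genes were called. In inguinal fat 4 were called, 3 higher and 1 lower, against 13.9 percent of all genes. Epididymal fat also had 4, 3 higher and 1 lower, against 25.0 percent, and 2 without epididymal SVF replicate 2. That count includes Scd3, which the filter favoured. With 10 members, these counts are not set apart from that background. For brown, inguinal and epididymal fat in turn, the median difference of the members was -0.03, 1.07 and 0.86, and that of all genes 0.15, 0.01 and 0.06.

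**Figure D2:**
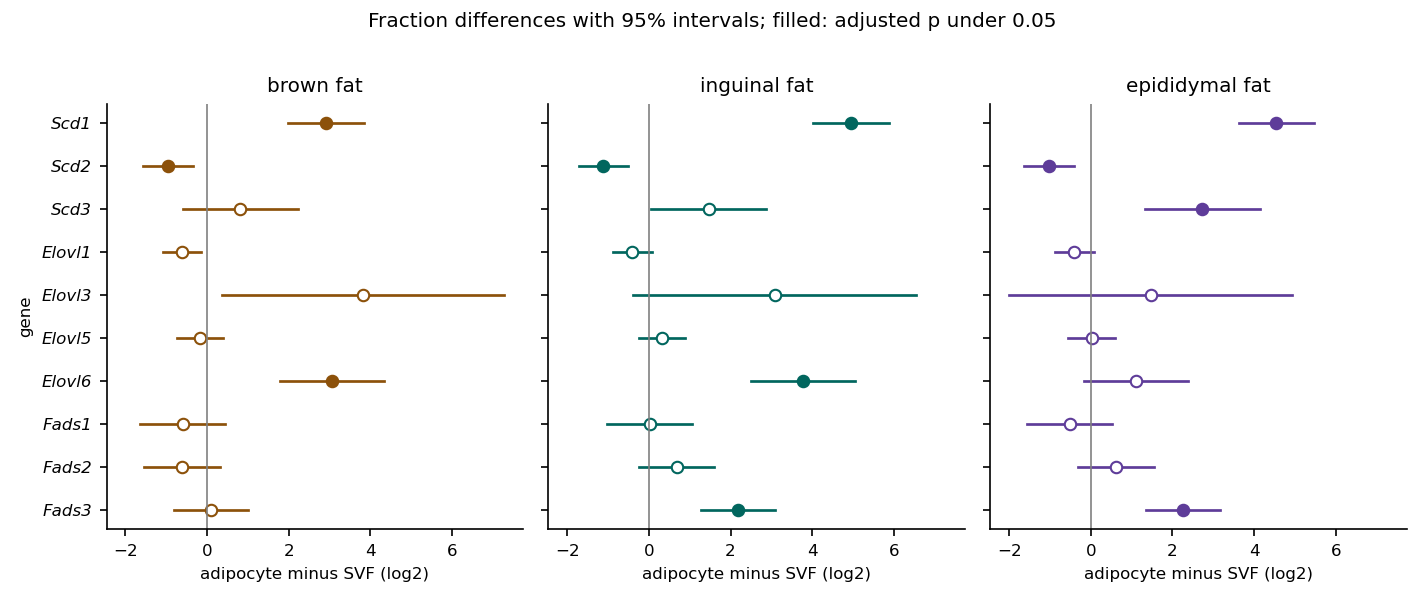
Difference between adipocyte and SVF level (horizontal axis, log2) of the 10 genes in the 3 depots, with 95% intervals of the limma fit over 3 arrays per group; filled points have an adjusted p under 0.05. Scd1 lies between 2.92 and 4.96 and Scd2 between -1.11 and -0.96, while the Elovl5 intervals span 0 in all depots. Points of Scd3 and Elovl3 include arrays below background, where at most a bound can be given.

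Isoforms were then contrasted on the same array, which removes what an array shares between probes, such as scaling. For each of 6 pairs, the difference of the 2 probes was taken on every array, and its change from SVF to adipocytes was averaged over the 3 depots. The offset between 2 probes has no meaning, only its change does. An exact two-sided permutation test exchanged fraction labels within depots, in 8000 arrangements, and the smallest p it can give is 0.00025. P values were adjusted over the 6 pairs, which were chosen with earlier results of these data known. In the white depots the batch of the arrays also changes between the fractions.

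Of the 6 pairs, Scd1 minus Scd2 shifted most, by 5.18 from SVF to adipocytes (exact permutation p = 0.00025, adjusted 0.00075). The shift was 3.88 in brown fat, 6.07 in inguinal and 5.58 in epididymal fat, without overlap of arrays in any depot. Since Scd1 alone was higher and Scd2 alone lower without overlap in each depot, this pair had to reach the smallest p. That p therefore adds nothing to the values of the 2 genes. Elovl6 minus Elovl5 shifted by 2.59 (exact permutation p = 0.00025, adjusted 0.00075), with 3.24, 3.46 and 1.08 in the same depots and again no overlap. Although Elovl6 alone overlapped between the epididymal fractions, its difference from Elovl5 was -2.79, -3.81 and -2.36 on the adipocyte arrays and -4.20, -3.97 and -4.03 on the SVF arrays.

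Within the Fads cluster, Fads3 minus Fads1 shifted by 1.88 (exact permutation p = 0.0005, adjusted 0.001), from 0.70 in brown to 2.16 in inguinal and 2.78 in epididymal fat, without overlap in 2 depots. Fads2 minus Fads1 moved by 0.59 (exact permutation p = 0.008, adjusted 0.0096). Its depot values were -0.02 in brown fat, 0.66 in inguinal and 1.13 in epididymal fat. On the epididymal arrays Fads2 minus Fads1 was -1.23, -1.36 and -1.14 in SVF and -0.54, -0.65 and 0.84 in adipocytes. The other 2 pairs, Scd1 minus Scd3 and Elovl3 minus Elovl1, were counted in the adjustment. Because no array of some groups measured Scd3 or Elovl3 well above background, their shifts follow background values there and are not given as changes.

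**Figure D3:**
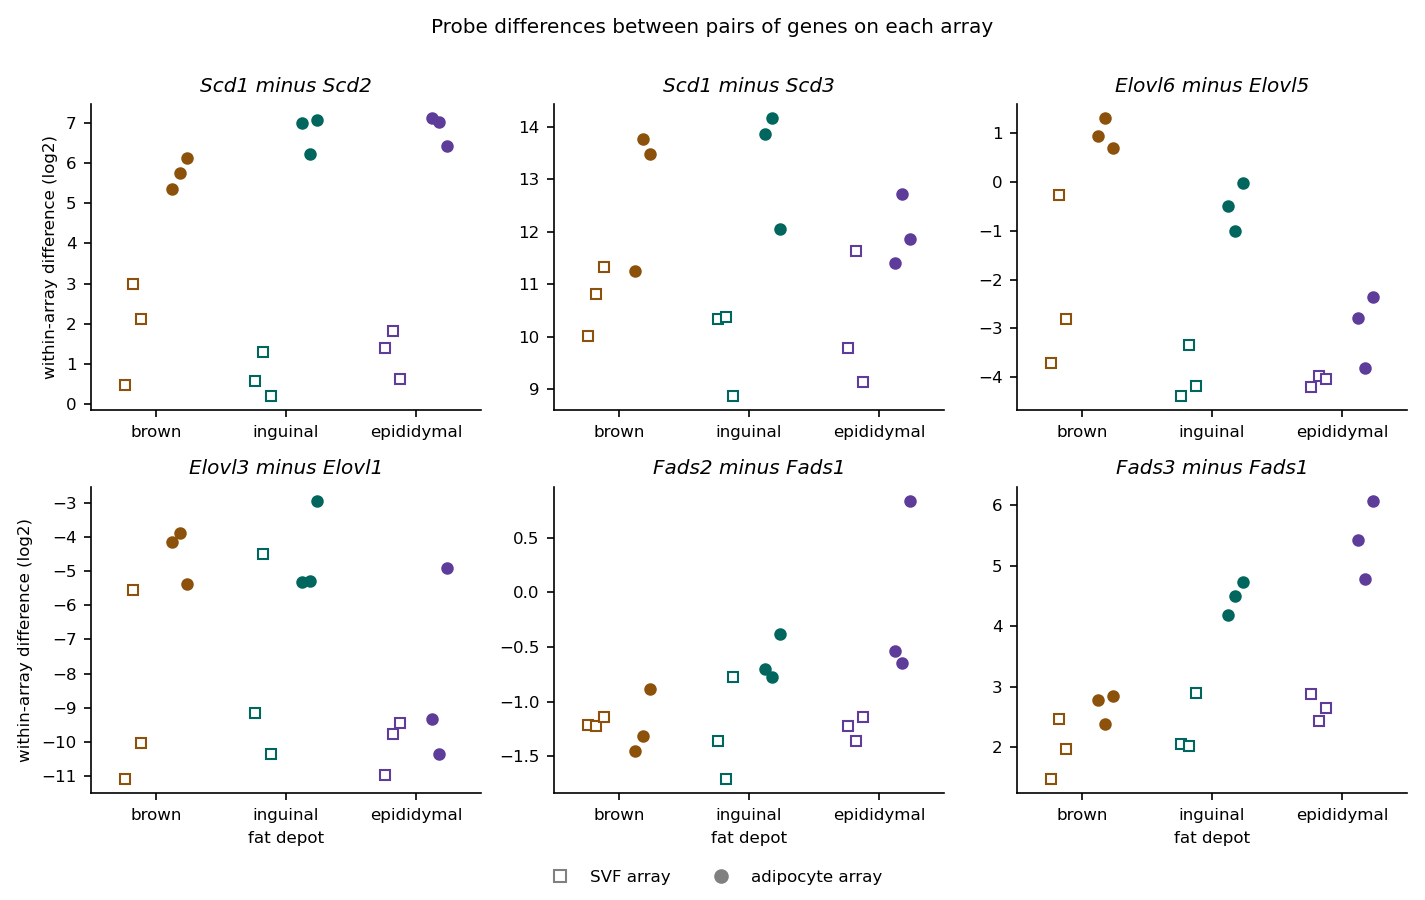
Difference between the probes of 6 pairs of genes on the same array (vertical axis, log2), by depot; open squares are SVF arrays and filled circles adipocyte arrays. Scd1 minus Scd2 and Elovl6 minus Elovl5 separate the fractions in all 3 depots, by 3.88 to 6.07 and by 1.08 to 3.46, whereas Fads2 minus Fads1 overlaps in brown fat. The pairs with Scd3 or Elovl3 include arrays on which that probe was not well above background.

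Between adipocytes of the 3 depots, the order of levels was clearest for Elovl6 and Fads3, and the orders were opposite. Elovl6 was 4.68 ± 0.557 (SD, n = 3) in brown, 3.16 ± 0.677 in inguinal and 0.65 ± 0.968 in epididymal adipocytes. Brown exceeded epididymal adipocytes 16.3-fold (log2 difference 4.03 ± 0.60, limma adjusted p = 0.00045). Inguinal exceeded epididymal adipocytes 5.69-fold (2.51 ± 0.60, limma adjusted p = 0.0251), a call lost without inguinal adipocyte replicate 1 (adjusted p = 0.0726) or 3 (0.0532) or epididymal adipocyte replicate 1 (0.0903), with normexp (1.91, 0.181), with probes above background on all arrays (0.0552) and with only the groups compared (0.0846). Brown and inguinal adipocytes did not differ beyond the threshold, at 1.52 ± 0.60 (95% interval 0.24 to 2.80, limma adjusted p = 0.109), though their arrays did not overlap.

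Fads3 had the reverse order of means, with 2.48 ± 0.414 in brown, 4.35 ± 0.738 in inguinal and 5.75 ± 0.275 in epididymal adipocytes (SD, n = 3). Brown adipocytes were 9.63-fold below epididymal ones (-3.27 ± 0.43, limma adjusted p = 0.00021) and 3.66-fold below inguinal ones (-1.87 ± 0.43, limma adjusted p = 0.0122). The latter call was lost without brown adipocyte replicate 3 (adjusted p = 0.0595) and with normexp (-1.45, 0.0890). Inguinal against epididymal adipocytes gave -1.40 ± 0.43 (limma, adjusted p = 0.0584), which passed without inguinal adipocyte replicate 3 (-1.82, 0.0207), inguinal SVF replicate 1 (0.0446) or inguinal SVF replicate 3 (0.0342), with quantile normalization (0.0407) and in the deposited matrix (0.0338). The second probe gave -3.02, -1.97 and -1.06, with the same calls.

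Of the rest, Scd2 and Fads2 differed between brown and epididymal adipocytes. Scd2 was 1.99-fold higher in brown ones (0.99 ± 0.29, limma adjusted p = 0.0192), and lost the call without brown adipocyte replicate 2 (adjusted p = 0.0771) or epididymal adipocyte replicate 1 (0.0839) or 2 (0.0581). The call was also lost with normexp (0.92, 0.113), quantile normalization (0.74, 0.0574) and only the groups compared (0.0574), while with median scaling the difference was 1.57. Fads2 was 3.04-fold lower in brown ones (-1.61 ± 0.44, limma adjusted p = 0.0143), from -1.55, -0.95 and -1.72 against -0.32, 0.10 and 0.82. It lost the call without brown adipocyte replicate 3 (adjusted p = 0.0577) or epididymal adipocyte replicate 3 (0.0715), and with median scaling (-1.03, 0.0651). Elovl1 was not called between brown and epididymal adipocytes (-0.50), but passed with quantile normalization (limma, -0.74, adjusted p = 0.0103), in the deposited matrix (-0.78, 0.0049) and with array weights (-0.66, 0.00403). Scd1 adipocyte means differed by 0.13 to 0.38 between depots, none called, and the 95% intervals reach from -1.30 to 1.18. Scd3 and Elovl3 passed in 1 comparison each when the dimmer group lost its only measured array. Without inguinal adipocyte replicate 3, Scd3 was at least 3.56-fold higher in epididymal than in inguinal adipocytes (limma, adjusted p = 0.0437). That array had the highest Scd3 of all arrays, -2.87. Without epididymal adipocyte replicate 3, Elovl3 was at least 10.49-fold higher in brown than in epididymal adipocytes (limma, adjusted p = 0.0485). Without that array, the bound of inguinal over epididymal adipocytes was at least 10.78-fold, and the test did not pass (limma, adjusted p = 0.118). Both probes passed the filter only through adipocyte groups in which they are high, and the array left out was the one that went against the difference. These bounds and calls were therefore favoured by both selections. With all arrays, none of these comparisons was called.

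These comparisons called 1 member for brown against inguinal adipocytes (12.2 percent of all genes), 4 for brown against epididymal (28.8 percent) and 1 for inguinal against epididymal (7.65 percent). The first count fell to 0 without brown adipocyte replicate 3. The last was 0 without inguinal adipocyte replicate 1 or epididymal adipocyte replicate 1, and 2 without inguinal SVF replicate 1 or 3 or inguinal adipocyte replicate 3. Summed brown adipocyte markers, all 10 tested, ran from 9.92 to 10.8 in brown, 7.62 to 8.56 in inguinal and 3.49 to 7.29 in epididymal adipocytes, the same order as Elovl6. Summed mesothelial markers were 3.93 to 4.81 in epididymal and at most 0.72 in the other adipocytes. Their part in these differences was not tested.

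Between the SVFs no member was called by limma. At an unadjusted p under 0.05 there were 2 members for brown against inguinal SVF, 4 for brown against epididymal and 2 for inguinal against epididymal, where 16.8, 10.96 and 9.31 percent of all genes had such a p. After adjustment all genes were called at 2.27, 1.78 and 0.297 percent. Scd1 was 1.66 ± 0.44 higher in brown than in inguinal SVF (limma, adjusted p = 0.0599), without overlap, and Elovl6 was 2.23 ± 0.60 higher (adjusted p = 0.0654). Without brown SVF replicate 1 both passed, at 2.17 (adjusted p = 0.0222) and 2.79 (0.0476), and the count became 2. Both also passed with scan day as a random block (0.0375 and 0.0414). Within scan days, Scd1 differed by 1.27 over 2 arrays per group and 2.44 over 1, and Elovl6 by 2.34 and 2.03. Against epididymal SVF, Scd1 in brown SVF was higher by 1.5 ± 0.44 (adjusted p = 0.118) and passed without brown SVF replicate 1 (2.00, adjusted p = 0.0287), which made the count 1. Ucp1 was 3.64 to 4.50 in brown SVF, and the summed brown adipocyte level there was 6.13 to 7.51, against 0.68 to 2.50 in inguinal and 1.04 to 1.77 in epididymal SVF. The part of adipocyte RNA in these differences was not tested.

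**Figure D4:**
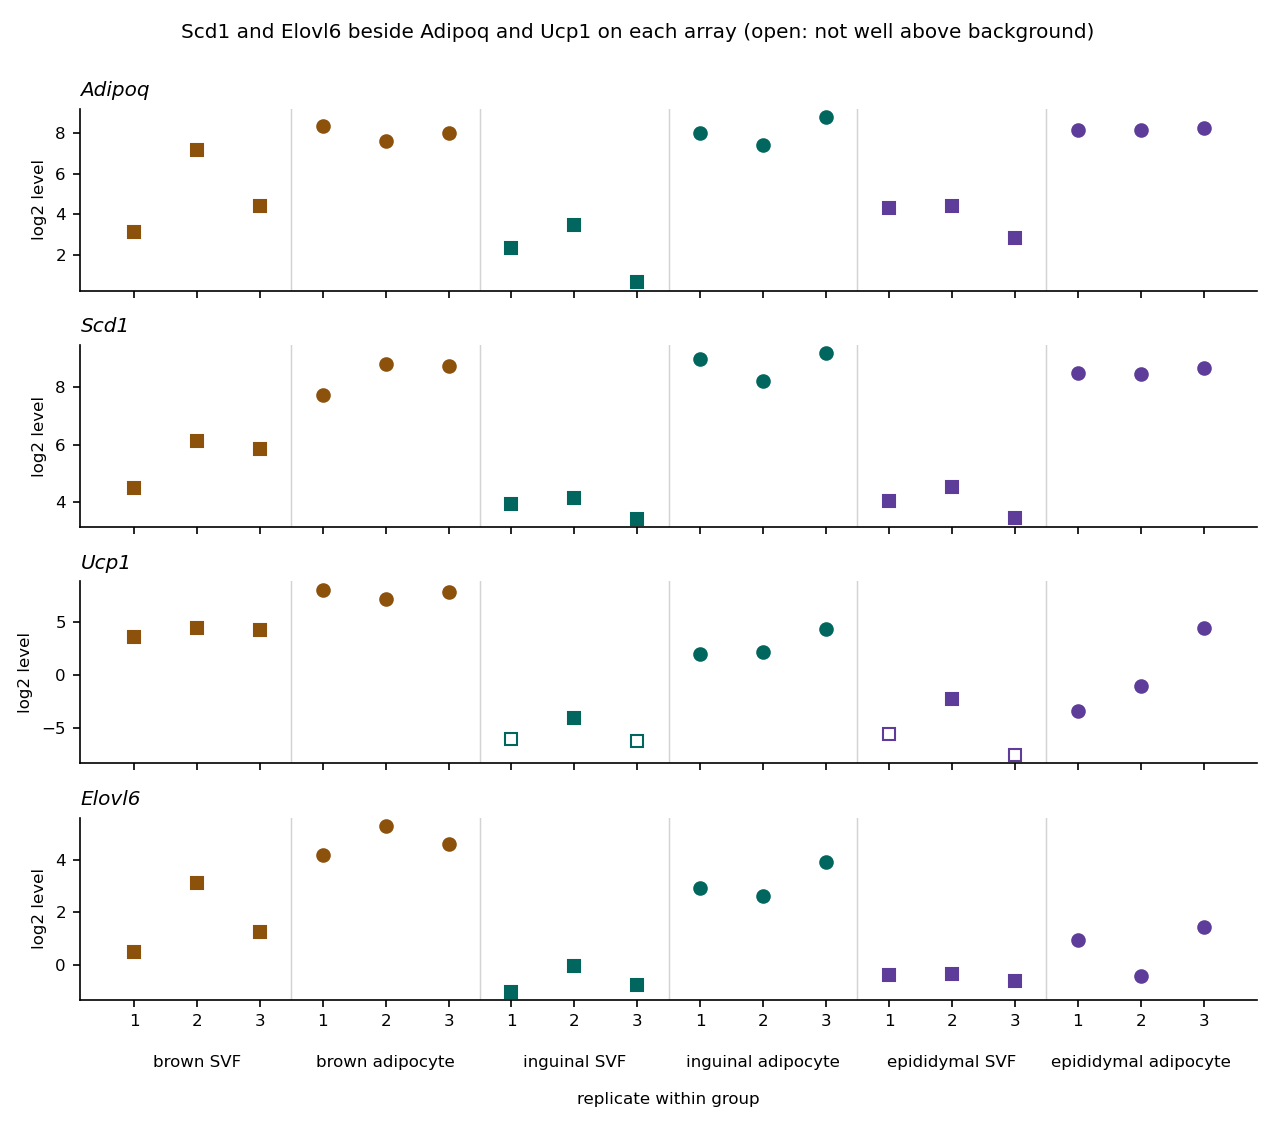
Level (vertical axes, log2 of signal over the 75th percentile signal) of Adipoq, Scd1, Ucp1 and Elovl6 on each of the 18 arrays, by group and replicate; open points are not well above background. Brown SVF replicate 2 has the highest Adipoq (7.16), Scd1 (6.12) and Elovl6 (3.09) of the SVF arrays, and epididymal adipocyte replicate 3 the highest Ucp1 (4.50) and Elovl6 (1.45) of its group.

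The enzymes around the members give their setting. The counts of each list are descriptions, to be read beside the medians and called shares of all genes above. The list for fatty acid synthesis had 10 genes tested. In brown adipocytes 9 were higher, in inguinal 8 and in epididymal 2, and none was lower. Its median difference was 2.37, 3.38 and 1.62 in that order. Fasn, the synthase that makes palmitate, was higher in brown adipocytes by 2.61 ± 0.74 (limma, adjusted p = 0.0196) and in inguinal ones by 4.08 ± 0.74 (adjusted p = 0.00307). In epididymal fat it was 1.84 (adjusted p = 0.0802), while Acacb, an acetyl-CoA carboxylase, was higher there by 2.41 ± 0.47 (adjusted p = 0.00311).

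The partners of the elongases complete the cycle by reducing and dehydrating what an elongase condenses. Of 6 tested, 4 were higher in brown, 2 in inguinal and 2 in epididymal adipocytes, and none was lower, with medians of 1.36, 0.78 and 0.49. Hacd2, a dehydratase, was higher by 1.94 ± 0.63 in brown (limma, adjusted p = 0.040), 3.92 ± 0.63 in inguinal (0.00157) and 2.72 ± 0.63 in epididymal fat (0.00717). Hsd17b12, the ketoacyl reductase, was higher by 2.08 ± 0.59 (0.0208), 3.01 ± 0.59 (0.00494) and 1.88 ± 0.59 (0.0310). Hacd4 had negative differences, -1.53, -1.99 and -1.18, none called.

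Cytochrome b5 and its reductases pass electrons to the desaturases. None of these 6 genes was called in brown or inguinal fat, and 1, Cyb5r2, was higher in epididymal adipocytes (1.83 ± 0.58, limma adjusted p = 0.0309). Its epididymal SVF mean, -5.88, lay below the lowest measurable level of those arrays, -5.61 on average, so the size of this difference is uncertain. Cyb5a, the microsomal cytochrome b5, differed by 0.68, 1.21 and 1.15 in brown, inguinal and epididymal fat (adjusted p of 0.296, 0.0702 and 0.0604). The list medians were 0.31, 0.29 and 0.16. Of 7 other genes of the member families, 4 could be tested. Degs2, a sphingolipid desaturase, was lower in brown adipocytes (-2.76 ± 0.28, limma adjusted p = 4.92e-05), and no other difference was called.

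The list of transcription factors for lipid synthesis and their partners, such as Scap, Insig1 and Insig2, included 12 tested genes. In brown adipocytes 3 were higher, in inguinal 6, and in epididymal 4 were higher and 1 lower, with medians of 0.70, 1.08 and 0.84. Mlxipl, which encodes the carbohydrate-response factor ChREBP, was higher in all 3 depots, by 3.51 ± 0.78 (limma, adjusted p = 0.00489), 4.20 ± 0.78 (0.0034) and 3.05 ± 0.78 (0.0116). Ppara, the fatty acid-activated receptor, was higher by 3.69 ± 0.59 (0.000627), 4.03 ± 0.59 (0.000928) and 2.43 ± 0.59 (0.00924). Srebf2, known for sterol synthesis, was lower in epididymal adipocytes (-1.16 ± 0.31, adjusted p = 0.0142).

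Acyl-CoA synthetases activate free fatty acids to acyl-CoAs, the substrates of the elongases and the stearoyl-CoA desaturases. Of 9 tested, 3, 5 and 5 were higher in brown, inguinal and epididymal adipocytes and none was lower, with medians of 2.75, 4.46 and 2.98. Slc27a2, a very-long-chain synthetase, was higher by 4.51 ± 1.07 in brown (limma, adjusted p = 0.00759) and by 6.43 ± 1.07 in inguinal adipocytes (0.00198). Its inguinal SVF mean, -5.27, lay below the lowest measurable level of those arrays, -5.02 on average, so the size of the inguinal difference is uncertain. Among 10 acyl transfer genes 5 were higher in each depot, and 2, 1 and 1 were lower. Dgat2, which completes triglyceride, was higher by 3.26, 5.58 and 3.41 (SE 0.89, limma adjusted p of 0.0163, 0.00147 and 0.0127). Lpcat1, a phospholipid acyltransferase, was lower in all 3 depots, at -1.01, -1.17 and -1.30 (SE 0.28, limma adjusted p of 0.0169, 0.0134 and 0.00487).

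Of 4 ceramide synthases tested, Cers6 was lower in brown adipocytes (-1.47 ± 0.43, limma adjusted p = 0.0237), Cers2 higher in inguinal (0.85 ± 0.26, 0.0404) and Cers4 higher in epididymal ones (0.84 ± 0.29, 0.0462). The list medians were -0.38, 0.43 and 0.37. Peroxisomes shorten very long chains, and of 10 genes of that pathway 8, 7 and 5 were higher in brown, inguinal and epididymal adipocytes and none was lower, with medians of 1.78, 1.75 and 1.41. Abcd3, a peroxisomal transporter, was higher by 2.00 ± 0.34 in brown fat (limma, adjusted p = 0.000932), and Scp2, a lipid carrier and thiolase, by 2.40 ± 0.44 in epididymal fat (0.00235).

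**Figure D5:**
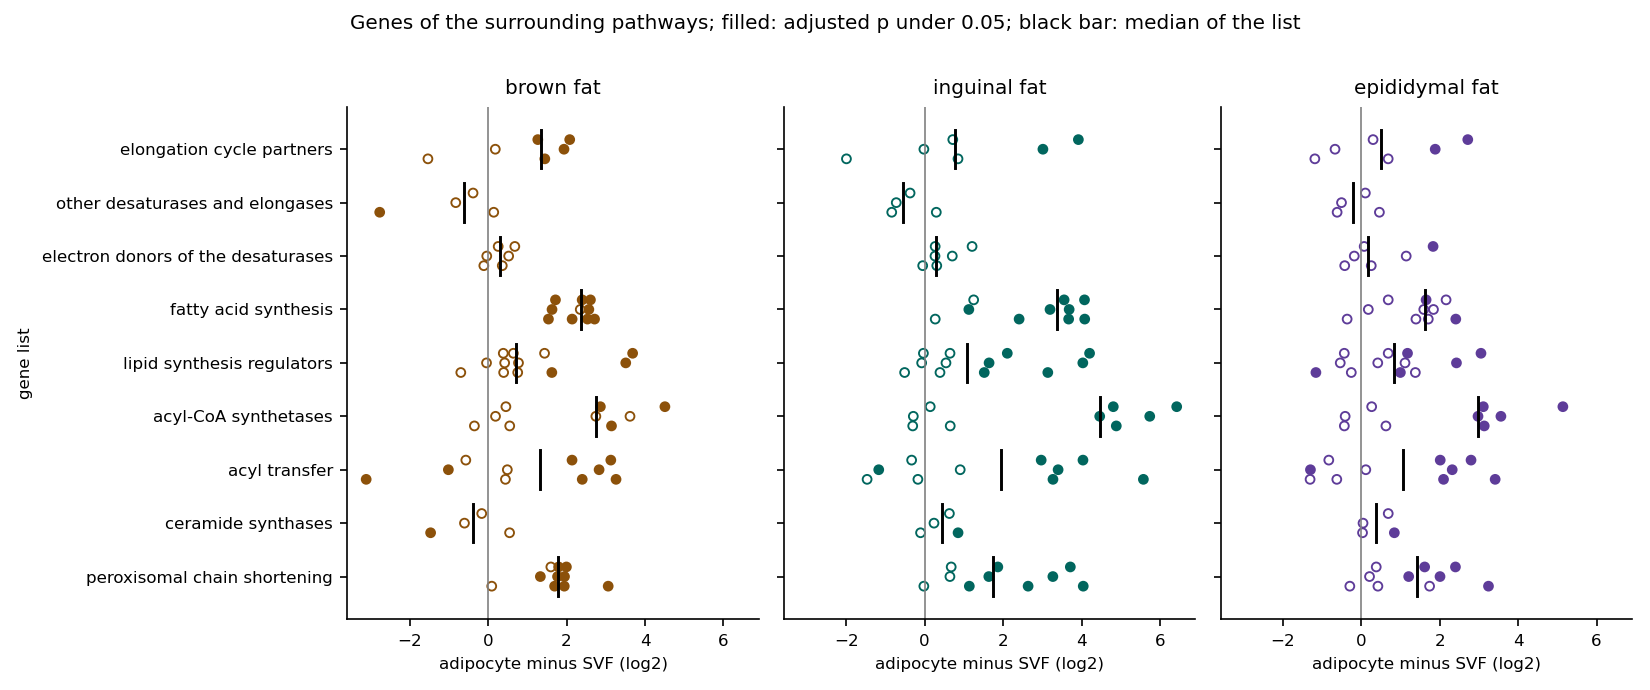
Difference between adipocyte and SVF level (horizontal axis, log2) of each tested gene of 9 surrounding lists, by depot; filled points have an adjusted p under 0.05 and black bars are list medians. The medians of the acyl-CoA synthetases are the highest, 2.75 to 4.46, and those of the electron donors lie between 0.16 and 0.31.

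Genes with a pattern like a member were ranked by the root mean square difference over the 18 arrays after each gene was centred on its own mean. For Scd1, whose own SD over the arrays is 2.25, the nearest were Prxl2a (0.549), Prkar2b (0.586) and Adig (0.613). For Elovl6, with an SD of 2.08, they were Mfsd4b1 (0.524), Tuba8 (0.613) and Fasn (0.646). Fads3, with an SD of 1.39, was nearest to Npr3 (0.506), Ddn (0.525) and Slc45a2 (0.534). Scd2, with an SD of 0.723, was nearest to Serinc5 (0.313) and Rtp4 (0.321). Fads1 (SD 0.654) lay nearest to Parva (0.261) and Tshz2 (0.311), and Fads2 (SD 0.744) to Adam15 (0.297) and Niban2 (0.321). Elovl1 (SD 0.362) was nearest to Rps6ka4 (0.176) and Plp2 (0.186), and Elovl5 (SD 0.296) to Cds2 (0.198) and Ktn1 (0.201). Scd3 (SD 1.23) was nearest to Tgm3 (0.379) and Elovl3 (SD 2.64) to Tfr2 (1.57), and both of these members are themselves below background on many arrays. Of the neighbours named, several were not well above background on every array, so that their distances and ranks rest partly on background: Slc45a2 was above it on 7 of the 18 arrays, Mfsd4b1 on 9, Tgm3 on 10, Adig on 13, Ddn on 14 and Tuba8 on 16. All points share the 6 groups, so a small difference follows the fractions and depots as much as the gene.

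Promoters were looked at for the members that RefSeq's table for GRCm38.p6 holds, 6 of the 10, with 7 windows. The windows of Elovl6 and Fads3 are shown since these genes had opposite orders among the adipocytes. They are the 250 bases before the start that the promoter table uses, on the plus strand, with CCAAT boxes in capitals on either strand (ATTGG where the box is on the minus strand). Elovl6 lies at chr3:129532136-129532385 and Fads3 at chr19:10041298-10041547, inside the span of the gene given above:
Elovl6: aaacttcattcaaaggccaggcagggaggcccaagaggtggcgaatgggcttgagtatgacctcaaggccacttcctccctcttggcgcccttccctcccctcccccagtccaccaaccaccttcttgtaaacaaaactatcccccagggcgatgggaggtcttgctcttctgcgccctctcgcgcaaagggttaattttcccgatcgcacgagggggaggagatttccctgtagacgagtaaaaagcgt
Fads3: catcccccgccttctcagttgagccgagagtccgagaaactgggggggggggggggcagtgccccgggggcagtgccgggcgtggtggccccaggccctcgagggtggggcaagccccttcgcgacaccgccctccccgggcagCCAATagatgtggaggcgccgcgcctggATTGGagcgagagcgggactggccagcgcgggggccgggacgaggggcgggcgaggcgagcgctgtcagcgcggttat
Fads3 had 2 CCAAT boxes, at -106 and -78 from the start, and Elovl6 none. Of 32851 promoters in the table, 37.4 percent held a CCAAT box. Elovl5 had 2 as well, and 1 of the Elovl1 windows had 1. The GC box GGGCGG, found in 35.7 percent of promoters, was counted 2 times in Fads3, 5 and 2 times in the Elovl1 windows, 1 time in Fads2 and 0 times in Elovl6. The E box CACGTG was found in Elovl5 only, at -161 (7.15 percent of promoters). The half-site AGGTCA was found in Elovl6 at -193 and in 1 Elovl1 window at -95 (16.3 percent). The sterol element TCACNCCAC was in none of the 7 windows (1.24 percent of promoters). Both strands were searched. A match is a description of letters and no site.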

How the data were processed

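RNA of 18 samples was measured on one-colour Agilent arrays. Feature Extraction, per the file headers, turned the images into a background-corrected processed intensity per spot, in an earlier version for the inguinal and epididymal adipocyte arrays. The matrix that the authors deposited gives 31201 probes on a log2 scale, with the normalization and centring not given in the sources used here and column medians of 8.12 to 8.13. All 18 columns match best an array of their labelled group, but only 4 the same array, so it served by group as an alternative.

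Controls and outlier spots were removed and the remaining spots averaged per probe, and the log2 75th percentile of each array was then subtracted. No spot was saturated. Of 41174 probes, 28588 were kept, being well above background in at least 1 group on each of its 3 arrays. A gene is the brightest kept probe. RefSeq names were matched through accessions (24375 probes), current symbols (6301) or synonyms (2426), while 8072 probes kept the name on the array. Summed marker levels are the log2 of the sum over a list of linear levels.

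limma 3.58.1 (lmFit and eBayes, two-sided, R 4.3.3) was fitted to all 6 groups, with Benjamini-Hochberg adjustment over 19211 genes and a threshold of 0.05, giving 9 differences and 3 interactions. The test was tested on simulated data. The limma p values rest on a single spread per gene. It is estimated from the replicates of all 6 groups and drawn toward the spread of other genes. Bounds ("at least N-fold") set the bright group's mean against the lowest signal well above background on the dim arrays. They are given only where every array of the bright group measured the probe. The sample titles do not say whether replicate numbers pair samples. Between the epididymal fractions, residuals of same-numbered arrays correlated at 0.424, 0.483 and 0.138. The other fraction comparisons had correlations of both signs. The highest of any comparison, 0.514, was between brown and epididymal SVF replicates 3, which share a slide. All 10 members are named, with up to 2 called, non-overlapping genes per list, direction and depot, of which some are given, other list members being examples chosen after their values were seen, and the nearest patterns. The members, lists and isoform pairs were chosen with earlier results of these data known. Alternatives covered background correction, scaling, probe filter and choice, the deposited matrix, blocks, array weights, the groups fitted, and each array left out. Gene positions and promoters are from RefSeq (GRCm38.p6), and protein sequences were not used here.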

Additional observations from a re-analysis of the deposited data

How the results depend on the processing

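No called difference of a member changed sign under any alternative. Scd1 kept its call in all 3 fraction comparisons, Elovl6 in the brown and inguinal ones and between brown and epididymal adipocytes, and Fads3 in the epididymal one and between brown and epididymal adipocytes, under all alternatives run, single arrays left out included. The counts of called members moved by more than 1.5 times in these cases, and the cause was not tested. With array weights there were 7 in the brown fraction comparison, 2 for brown against inguinal adipocytes, 3 for inguinal against epididymal adipocytes, 4 for brown against epididymal SVF, and 1 and 4 in the interactions of brown with inguinal and with epididymal fat. With normexp background correction (on median signals, since 12 arrays give no mean signal) there were 2 in the epididymal fraction comparison, 0 for brown against inguinal and for inguinal against epididymal adipocytes, 1 for brown against inguinal SVF and 2 for inguinal against epididymal SVF. Quantile normalization and the deposited matrix each gave 2 for inguinal against epididymal adipocytes and 1 in the brown minus epididymal interaction. With only the groups compared in the fit, which leaves fewer arrays for the spread, there were 2 in the inguinal fraction comparison, 0 for inguinal against epididymal adipocytes and 1 in the brown minus epididymal interaction. With probes above background on all arrays there were 0 for inguinal against epididymal adipocytes and 2 for brown against inguinal SVF, and the latter had 1 with median scaling, 1 with slide and 2 with scan day as a random block. With each array left out in turn, the counts ranged from 2 to 4, 3 to 5 and 2 to 4 in the brown, inguinal and epididymal fraction comparisons, from 0 to 1, 3 to 4 and 0 to 2 for brown against inguinal, brown against epididymal and inguinal against epididymal adipocytes, and from 0 to 2, 0 to 1 and 0 to 0 for the SVFs in the same order. The interactions ranged from 0 to 1 for brown minus epididymal and stayed at 0 for the others. The isoform shifts ranged from 4.94 to 5.36 (Scd1 minus Scd2), 2.35 to 2.92 (Elovl6 minus Elovl5), 0.43 to 0.68 (Fads2 minus Fads1) and 1.77 to 1.99 (Fads3 minus Fads1). Each of these 4 pairs kept an adjusted p under 0.05 (exact permutation test). The pairs with Scd3 or Elovl3 rest partly on background values, and their ranges are not given. With the replicate number as a block, the epididymal count stayed at 4, in the fit of all arrays and in that of the epididymal arrays alone. The block changed 1 call of a member, Elovl1 in the brown fraction comparison (limma, adjusted p = 0.0453). Residuals of same-numbered brown arrays correlated at -0.119, -0.051 and 0.389, and whether those numbers pair the samples is not known. Scaling to the median moved the median of all genes from 0.06 to -0.45 in the epididymal fraction comparison and from -0.01 to 0.56 between brown and epididymal adipocytes, and the share of calls that are higher from 71.8 to 36.2 percent and from 42.9 to 76.3 percent. Quantile normalization gave 49.3 percent higher in the brown fraction comparison, against 60.4. Signal over background limits Scd3 and Elovl3, whose differences rest on few arrays.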
